A study of Mus musculus with 4 samples.

Results

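The interstitial collagens are the collagen chains that fibroblast-type cells lay down between cells, and 10 of their genes were followed here. They were Col1a1 and Col1a2 (type I), Col3a1 (type III), Col5a1, Col5a2 and Col5a3 (type V), Col6a1, Col6a2 and Col6a3 (type VI) and Col12a1 (type XII). They were picked by gene symbol, and all 10 were found among the 18298 genes that any of the samples listed. The comparison asked how these fibroblast-type collagens differed between Senp6-mutant and control chondrocytes. RNA-seq was run on primary rib chondrocytes, the cells that make cartilage, from E18.5 embryos of a C57BL/6 background, cultured to passage P1. There were 2 mutant cultures (Dermo1-Cre;Senp6f/f) and 2 control cultures (Senp6f/f, labelled WT). Both groups thus carried the floxed Senp6 alleles, and only the mutants carried Cre, so no Cre-only control was included. Dermo1-Cre is expressed from the Twist2 (Dermo1) locus in mesenchymal progenitors, so the deletion is limited to cells with a history of that expression. Senp6 encodes a protease that removes SUMO2/3 chains from proteins. Nothing in the labels ties a culture to 1 animal or to a pool, so the p values measure the spread between these samples, which may be partly technical.

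Every collagen molecule contains triple-helical stretches, where its chains are built from repeats of glycine and a pair of further residues, often proline or hydroxyproline. Types I, III and V assemble into fibrils, in which type I is the bulk of skin, bone and tendon, type III co-assembles with it in compliant tissues, and type V starts the fibril and limits its width. Type VI forms beaded microfilaments around cells, and type XII decorates the surface of type I fibrils. Cartilage is instead built on type II collagen, and chondrocytes grown in a dish are known to shift from type II towards type I collagen as they dedifferentiate.

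The repeat that defines the family can be read in the coding sequences, and the opening of the longest repeat run of 6 members is shown to let the fibrillar chains be set against the type VI and type XII chains. Each line is 54 coding bases, 5′ to 3′, from GENCODE M21 transcripts (GRCm38), and capitals mark the glycine codon (GGN) that opens each triplet. Glycine codons at the other positions of a triplet, as in Col3a1, are in lower case.
Col1a1: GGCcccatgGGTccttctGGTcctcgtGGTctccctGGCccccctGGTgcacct
Col1a2: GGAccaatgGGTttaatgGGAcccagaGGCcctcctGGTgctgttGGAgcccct
Col3a1: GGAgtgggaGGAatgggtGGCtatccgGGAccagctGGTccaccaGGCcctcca
Col5a2: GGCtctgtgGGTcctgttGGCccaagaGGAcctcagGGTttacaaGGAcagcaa
Col6a1: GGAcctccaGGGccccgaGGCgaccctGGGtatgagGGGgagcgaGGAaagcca
Col12a1: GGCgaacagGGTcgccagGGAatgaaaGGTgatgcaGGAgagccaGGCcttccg
In Col1a1 the stretch joins exons 6 and 7 of 51 (chr11:94939451-94939741, forward strand), and in Col1a2 exons 6 and 7 of 52 (chr6:4512406-4515254, forward strand). The Col3a1 stretch joins exons 5 and 6 of 51 (chr1:45323762-45325377, forward strand), and that of Col5a2 exons 8 and 9 of 54 (chr1:45423682-45426996, reverse strand). The Col6a1 stretch joins exons 8 and 9 of 35 (chr10:76719659-76720996, reverse strand), and that of Col12a1 exons 56 and 57 of 66 (chr9:79612925-79613769, reverse strand). The uninterrupted run held 338 glycine triplets in Col1a1, 339 in Col1a2, 344 in Col3a1 and 337 to 339 in the type V genes. It held 87 triplets in Col6a1 and in Col6a2, 45 in Col6a3 and 32 in Col12a1. The run made up 69.8% of the codons of Col1a1 but only 3.13% of those of Col12a1, most of which encode other domains. Some members are neighbours in the genome. Col3a1 and Col5a2 lie on opposite strands of chromosome 1 with 24614 bases between them, and Col6a1 and Col6a2 lie on the reverse strand of chromosome 10 with 85161 bases between them.

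Between 21.02 and 30.99 Mreads (1e+06 reads) per sample were counted on genes. Control replicate 1 stood apart, at a Euclidean distance of 39.5 from control replicate 2 on the log2(RPKM + 1) scale, against 25.0 between the mutants and 33.0 between control replicate 2 and mutant replicate 1. Mutant replicate 2 had 11354 reads on Xist against at most 5 elsewhere, and at most 3 reads on each of the Y-linked genes Ddx3y, Eif2s3y, Kdm5d and Uty, which had 279 or more elsewhere, so that the sex pattern differed within the mutant pair. Senp6 itself had an RPKM of 10.84 and 18.02 in the controls and 12.02 and 8.07 in the mutants, which overlapped (log2 fold change -0.56, edgeR adjusted p = 0.409). The deleted exons of Senp6 were not examined, since the files give counts per gene. As the cultures are bulk samples, fewer cells of a type and less RNA per cell cannot be told apart.

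Type I, III and VI collagen transcripts were lower in both mutant cultures than in both controls, type V transcripts overlapped between the groups, and type XII was higher in both mutants. The differences were modest, and the gap between the control cultures was often as large as the gap between genotypes. In edgeR's quasi-likelihood test, with p values adjusted by Benjamini-Hochberg over 14123 genes, 0 of the 10 members passed an adjusted p of 0.05 in either direction, beside 0% of all tested genes lower and 0% higher. At an unadjusted p under 0.05 the same edgeR test held 4 members (Col3a1, Col6a1, Col6a2 and Col6a3), beside 15.6% of all genes. A fit blocked on replicate number again called 0 members, beside 0.234% of all genes lower and 0.595% higher, and gave 6 members an unadjusted p under 0.05, beside 13.9% of all genes. The median log2 fold change over the 10 members was -0.57, beside 0.0097 over all tested genes. Both mutants lay below both controls for 6 of 10 members, beside 22.8% of all tested genes. They lay above both controls for 1 of 10, beside 25.4% of all tested genes.

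**Figure D1:**
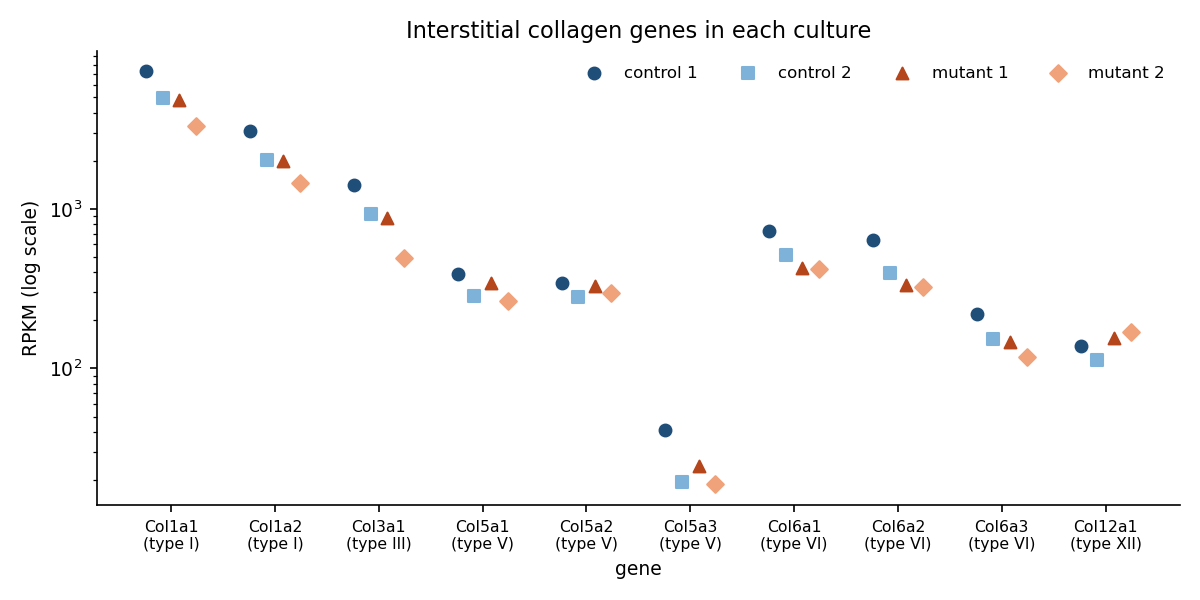
RPKM on a log axis (reads scaled by transcript length and by the reads on genes) of the 10 interstitial collagen genes in the 2 control and 2 mutant cultures, 1 symbol per culture. Control replicate 1 is the highest sample for 9 of 10 genes, and mutant replicate 2 is the lowest for 8 of 10 but the highest for Col12a1. The matching shares over all tested genes were not computed.

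Col1a1 encodes the α1 chain of type I collagen, the most abundant protein of the skeleton. Its RPKM was 7253 in control replicate 1, 4961 in control replicate 2, 4828 in mutant replicate 1 and 3311 in mutant replicate 2. In every pair of values, replicate 1 is given before replicate 2. The mean was 6107 ± 1621 (SD, n = 2) in the controls and 4070 ± 1072 (SD, n = 2) in the mutants. The groups did not overlap, but the higher mutant lay only 2.68% below the lower control, whereas control replicate 1 was 1.46-fold above control replicate 2. The log2 fold change was -0.63 (standard error 0.268, edgeR quasi-likelihood adjusted p = 0.332). By RPKM Col1a1 ranked first among all genes in both controls and in mutant replicate 1, and was at rank 4 in mutant replicate 2.

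Col1a2 encodes the α2 chain, which joins the α1 chains in the type I molecule. The RPKM was 3062 and 2019 in the controls and 1981 and 1445 in the mutants. The samples kept the order seen for Col1a1, with 1.88% between the lower control and the higher mutant. On the log2 scale the mutants differed by -0.61 (standard error 0.262, edgeR adjusted p = 0.333), a value close to that of Col1a1. Within each culture the RPKM of Col1a1 was 2.37 and 2.46 times that of Col1a2 for the controls and 2.44 and 2.29 times for the mutants. The mean log2 ratio of the chains differed by -0.030 between mutants and controls (exact permutation test over the samples, two-sided, p = 0.667). With 2 samples against 2 the smallest p that this test allows is 0.333.

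Col3a1 encodes the chain of type III collagen, which forms thin fibrils with type I in loose connective tissue. Its RPKM was 1417 and 934 in the controls and 872 and 492 in the mutants. Here the log2 fold change was the lowest of the 10 members, at -0.83 (standard error 0.326, edgeR adjusted p = 0.290). All 4 samples again fell in the order control replicate 1, control replicate 2, mutant replicate 1 and mutant replicate 2. This order was shared by 6 of the 10 genes, and its share over all tested genes was not computed. The mutants differed from each other by 1.77-fold. The RPKM of Col3a1 relative to Col1a1 was 0.195 and 0.188 in the controls and 0.181 and 0.149 in the mutants (difference of log2 ratios -0.23, exact permutation p = 0.333, the smallest possible).

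RefSeq promoter sequences (GRCm38.p6, 250 bases before to 50 after the gene start) were matched for 7 of the 10 members. Those of Col1a2 (chr6:4505368-4505667, forward strand) and Col3a1 (chr1:45311288-45311587, forward strand) are shown as examples. Both genes had the order over the 4 samples that 6 of the 10 members shared. How many of all tested genes had that order was not computed, and no link between promoter and order was tested. Capitals mark the letters of the TATA box (TATAAA), the CCAAT box and the GC box (GGGCGG) on either strand, with no overlap between matches.
Col1a2: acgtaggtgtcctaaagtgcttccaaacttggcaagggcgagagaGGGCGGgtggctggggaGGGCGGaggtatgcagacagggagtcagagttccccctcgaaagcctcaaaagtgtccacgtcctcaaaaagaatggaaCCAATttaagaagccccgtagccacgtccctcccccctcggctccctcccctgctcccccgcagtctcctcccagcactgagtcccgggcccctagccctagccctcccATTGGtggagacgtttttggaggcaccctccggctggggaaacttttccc
Col3a1: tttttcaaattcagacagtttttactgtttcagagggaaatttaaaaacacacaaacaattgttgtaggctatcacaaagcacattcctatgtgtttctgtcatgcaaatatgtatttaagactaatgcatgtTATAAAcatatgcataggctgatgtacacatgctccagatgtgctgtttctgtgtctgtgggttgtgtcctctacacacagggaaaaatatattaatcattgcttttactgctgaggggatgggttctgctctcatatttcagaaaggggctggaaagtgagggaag
The Col1a2 window held the CCAAT box letters 2 times and the GC box letters 2 times, and its GC content was 61.0%. The Col3a1 window held the TATAAA letters 1 time, neither of the others, and 37.7% GC. These are matches of letters at any position in the window, and their use as promoter elements was not tested. The windows of Col6a1 and Col6a3 held none of the 3 motifs. Of all 32851 promoters of this length, 13.6% held the TATA box letters, 37.4% the CCAAT box and 35.7% the GC box, and the median GC content was 52.7%.

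The type V chains seed type I fibrils, and the values of their genes overlapped between the groups. Col5a1 had an RPKM of 391 and 283 in the controls and 341 and 263 in the mutants. Mutant replicate 1 lay between the controls and mutant replicate 2 below both, and the log2 fold change was -0.20 (standard error 0.221, edgeR adjusted p = 0.722). Col5a2 had 343 and 281 in the controls and 329 and 298 in the mutants, so that both mutants lay between the controls. Its log2 fold change was -0.039 (standard error 0.164, edgeR adjusted p = 0.934), a value that turned positive with library totals in place of TMM scaling (0.0053). Col5a3 encodes a minor type V chain and was the lowest of the members, with an RPKM of 41.4 and 19.5 in the controls and 24.4 and 18.8 in the mutants. Control replicate 1 alone stood out, at 2.12 times control replicate 2. The log2 fold change of Col5a3 was -0.54 (standard error 0.353, edgeR adjusted p = 0.529), and it was 0.13 without control replicate 1. The RPKM of Col5a1 was 1.14 and 1.01 times that of Col5a2 for the controls and 1.04 and 0.885 times for the mutants, and the groups overlapped.

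Type VI collagen is a heterotrimer of the products of Col6a1, Col6a2 and Col6a3, and it forms the pericellular matrix of chondrocytes among other cells. Col6a1 had an RPKM of 722 and 510 in the controls and 424 and 417 in the mutants. The mutants were within 1.02-fold of each other, the higher mutant was 16.9% below the lower control, and the log2 fold change was -0.60 (standard error 0.198, edgeR adjusted p = 0.222). Col6a2 had 640 and 395 in the controls and 331 and 322 in the mutants, with the higher mutant 16.2% below the lower control. On the log2 scale the difference was -0.71 (standard error 0.242, edgeR adjusted p = 0.230). Under DESeq2 it was the single member with an adjusted p below 0.05 (0.047), beside 2.01% of all genes lower and 3.3% higher in that test. DESeq2 gave 6 of the 10 members (types I, III and VI) an unadjusted p under 0.05, beside 14.3% of all genes. Col6a3, whose long chain carries many von Willebrand factor A domains, had 218 and 154 in the controls and 146 and 118 in the mutants. Its log2 fold change was -0.54 (edgeR adjusted p = 0.308). Relative to Col6a1, the RPKM of Col6a3 was 0.302 in both controls, and 0.345 and 0.283 in the mutants, which lay on either side. The ratio of Col6a1 to Col6a2 was 1.13 and 1.29 in the controls and 1.28 and 1.30 in the mutants (exact permutation p = 0.667).

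Col12a1 encodes the chain of type XII collagen, a fibril-associated collagen of tendon, ligament and perichondrium. It was the single member with a positive value, with an RPKM of 138 and 113 in the controls and 154 and 168 in the mutants. The log2 fold change was 0.32 (standard error 0.157, edgeR adjusted p = 0.407), and it kept its sign in all 12 alternative fits, from 0.12 to 0.49. By RPKM the controls differed from each other by 1.22-fold, against 1.28-fold between the means of the genotypes. With TMM scaling the fit gave 1.24-fold between the genotypes. On that scale, as log2 CPM centred on the 4 samples, the controls were at 0.0118 and -0.337 and the mutants at 0.12 and 0.205.

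**Figure D2:**
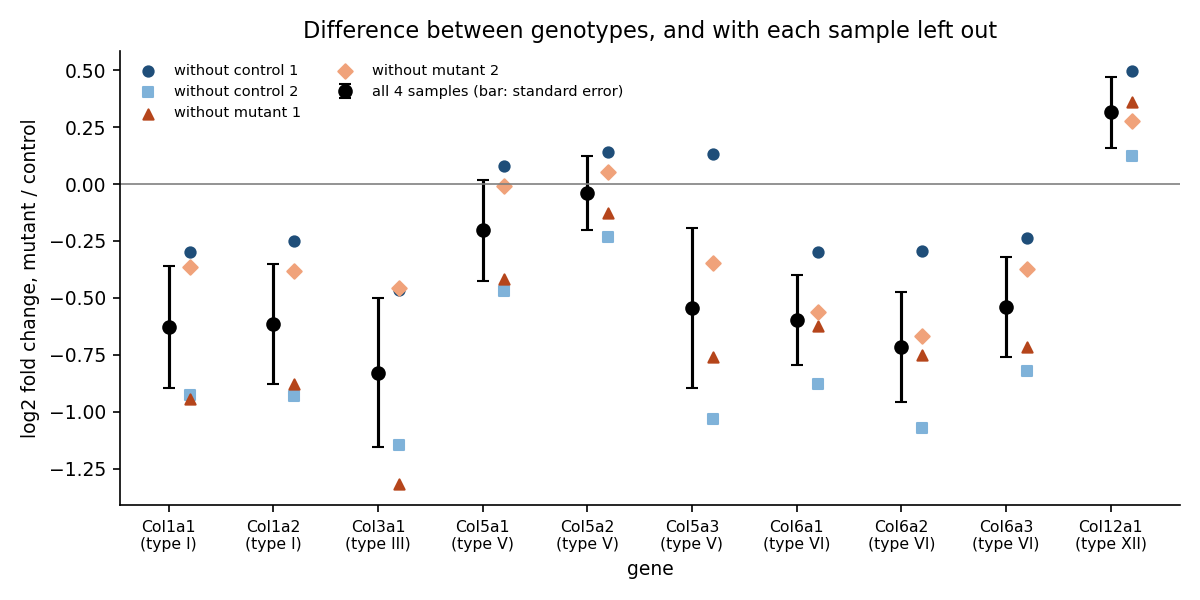
Log2 fold change (mutant over control) of the 10 genes from the edgeR fit of all 4 samples (black, bar: standard error), and from fits with 1 sample left out (coloured symbols). The values of types I, III and VI stay below 0 and those of Col12a1 above 0 in each fit shown. Col5a1, Col5a2 and Col5a3 cross 0 without control replicate 1, and Col5a2 also without mutant replicate 2.

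The size of these differences moved with the control that was kept. Without control replicate 1 the median over the 10 members was -0.24, and without control replicate 2 it was -0.90. Without control replicate 1 the log2 fold change was -0.30 for Col1a1, -0.25 for Col1a2, -0.47 for Col3a1, -0.30 for Col6a1, -0.29 for Col6a2 and -0.24 for Col6a3, and 0.49 for Col12a1. Without mutant replicate 2, the sample with Xist reads, it was -0.36 for Col1a1, -0.38 for Col1a2, -0.45 for Col3a1, -0.56 for Col6a1, -0.67 for Col6a2, -0.37 for Col6a3 and 0.28 for Col12a1. Types I, III and VI thus stayed negative on either omission. The fit without control replicate 2 placed 6 members below the threshold of an adjusted p of 0.05 (Col1a1, Col1a2, Col5a3 and the 3 type VI genes), beside 10.3% of all genes lower and 9.25% higher, and it held no spread between controls. In that fit 7 members had an unadjusted p under 0.05 in edgeR, beside 34.2% of all genes. Without mutant replicate 1 it was Col3a1 alone (edgeR adjusted p = 0.00719), beside 0.634% of all genes lower and 1.98% higher, with 6 members at an unadjusted p under 0.05, beside 9.86% of all genes. Without control replicate 1 no member passed in edgeR, beside 0.992% of all genes lower and 3.55% higher, and 1 member (Col12a1) had an unadjusted p under 0.05, beside 16.3% of all genes. Nor did any member pass in edgeR without mutant replicate 2, beside 0.27% lower and 0.496% higher, and 2 members (Col6a1 and Col6a2) had an unadjusted p under 0.05, beside 6.9% of all genes.

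The 10 genes took 7.29% of all counts in control replicate 1 (95% Wilson interval 7.27% to 7.30%), 4.98% in control replicate 2 (4.97% to 4.99%), 4.93% in mutant replicate 1 (4.92% to 4.94%) and 3.62% in mutant replicate 2 (3.61% to 3.62%). The intervals cover counting error only and are far narrower than the spread between replicates. The mutant mean minus the control mean was -1.86 percentage points (exact permutation p = 0.333, the smallest possible), and -0.71 points without control replicate 1. As a share of the summed RPKM the 10 genes took 3.41% and 2.31% in the controls and 2.32% and 1.63% in the mutants, which overlapped (difference -0.89 points, exact permutation p = 0.667), and the type I share overlapped too. Most of the share of counts was type I, at 4.99% and 3.37% of the counts in the controls and 3.29% and 2.30% in the mutants. Scaling the libraries without the counts of the 10 genes gave a median log2 fold change of -0.59 over them.

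Proportions within a culture do not depend on the scaling between libraries. In all, 14 ratios of RPKM were computed, 4 of them planned and 10 added later, and no exact permutation p could pass 0.05 (the smallest Benjamini-Hochberg adjusted p over the 14 was 0.932). The ratio of Col12a1 to Col1a1 was 0.0190 and 0.0228 in the controls and 0.0320 and 0.0507 in the mutants, 1.94-fold higher on average. The ratio of Col5a2 to Col1a1 was 0.0473 and 0.0566 in the controls and 0.0681 and 0.0899 in the mutants, 1.51-fold higher. For Col5a1 to Col1a1 it was 0.0540 and 0.0571 against 0.0706 and 0.0796. In these 3 ratios both mutants lay above both controls (exact permutation p = 0.333 each, the smallest possible). All 3 have the denominator Col1a1, which was itself lower in the mutants (log2 fold change -0.63). Col5a1, Col5a2 and Col12a1 alone were at -0.20, -0.039 and 0.32, so these ratios do not show a rise of type V transcripts. The share of all genes with such a ratio to Col1a1 was not computed. The ratios of Col6a1, Col6a2 and Col6a3 to Col1a1 overlapped between the groups. With another denominator, the ratio of Col12a1 to Col3a1 was 0.097 and 0.121 in the controls and 0.177 and 0.342 in the mutants. It was 2.27-fold higher on average (exact permutation p = 0.333, the smallest possible), and Col3a1 was itself lower in the mutants (log2 fold change -0.83).

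**Figure D3:**
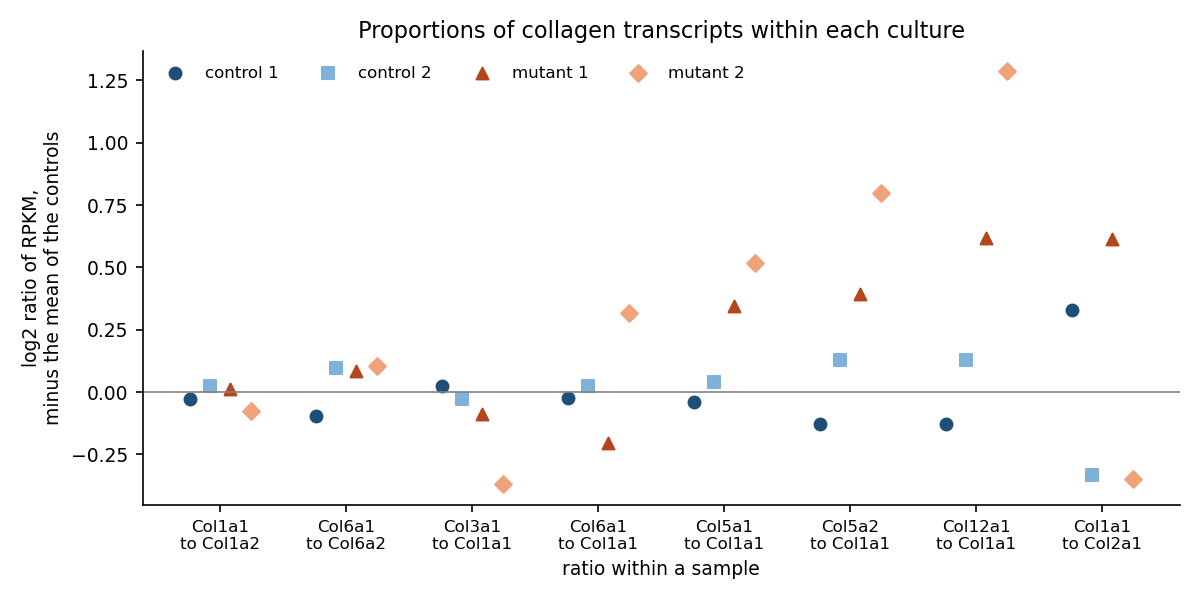
Log2 ratio of the RPKM of a pair of collagen genes within each culture, minus the mean of the 2 controls, 1 symbol per culture. The chain ratios of type I and type VI stay near 0, the ratios of Col5a1, Col5a2 and Col12a1 to Col1a1 are higher in both mutants, and Col1a1 to Col2a1 is spread over both groups.

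Col2a1 encodes the chain of cartilage type II collagen, and its RPKM was 609 and 659 in the controls and 334 and 445 in the mutants (log2 fold change -0.75, standard error 0.164, edgeR adjusted p = 0.114). The RPKM of Col1a1 was 11.9 and 7.53 times that of Col2a1 in the controls and 14.5 and 7.44 times in the mutants. The groups overlapped (difference of log2 ratios 0.13, exact permutation p = 1), and the difference ran from -0.35 to 0.61 with 1 sample left out. Type I thus exceeded type II collagen transcripts in all 4 cultures.

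The list of cartilage collagens held 8 genes, all tested, including Col2a1, Col11a1 and Col11a2. Both mutants lay below both controls for 7 of the 8 (22.8% of all tested genes), and the median log2 fold change was -1.45, beside -0.57 for the interstitial members. No cartilage collagen passed an adjusted p of 0.05 in edgeR (7 had an unadjusted p under 0.05, beside 15.6% of all genes). In DESeq2 7 passed it, all lower, beside 2.01% of all genes and against 1 of the 10 interstitial members. Col11a2, a chain of the thin cartilage fibril, had an RPKM of 43.8 and 30.8 in the controls and 7.10 and 10.6 in the mutants (log2 fold change -2.12, standard error 0.256, edgeR adjusted p = 0.0737). Col11a1 had 139 and 127 in the controls and 97.0 and 89.0 in the mutants (log2 fold change -0.56, edgeR adjusted p = 0.137). The difference between the 2 lists was not tested.

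Of 26 other collagens 22 were tested, with a median log2 fold change of 0.12. Both mutants were below for 4 and above for 8, beside 22.8% and 25.4% of all tested genes. The basement membrane chains Col4a1 and Col4a2 had log2 fold changes of 0.086 and 0.077 (edgeR adjusted p = 0.860 and 0.875). The fibril-associated Col16a1 had an RPKM of 72.0 and 43.3 in the controls and 37.1 and 37.4 in the mutants, and was at -0.68 (edgeR adjusted p = 0.256). Its control replicate 1 was again the highest sample. No gene of this list passed in edgeR, where 12 had an unadjusted p under 0.05 (15.6% of all genes). DESeq2 called Col14a1 and Col6a6 lower (2.01% of all genes) and Col7a1 higher (3.3% of all genes), named here after their values were seen.

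The enzymes and chaperones that fold and hydroxylate procollagen had a median of -0.19, beside -0.57 for the interstitial members. All 20 listed genes were tested, and 17 had a negative value. Both mutants lay below both controls for 11 and above for 2, beside 22.8% and 25.4% of all tested genes. Serpinh1, the collagen chaperone HSP47, had an RPKM of 1763 and 1398 in the controls and 1379 and 1194 in the mutants (log2 fold change -0.34, edgeR adjusted p = 0.430). P4hb, a subunit of prolyl 4-hydroxylase, and Fkbp10, a chaperone of procollagen, were at -0.18 and -0.31 (edgeR adjusted p = 0.576 and 0.371). No gene of this list passed an adjusted p of 0.05 in edgeR or in DESeq2, and 2 had an unadjusted p under 0.05 in edgeR, beside 15.6% of all genes.

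For the 13 tested genes that trim and cross-link procollagen the median was 0.098, with both mutants below both controls for 1 and above for 4, beside 22.8% and 25.4% of all tested genes. Pcolce, which enhances the cleavage of the C-propeptide, had an RPKM of 780 and 668 in the controls and 617 in both mutants (log2 fold change -0.28, edgeR adjusted p = 0.430). The cross-linking oxidases Lox and Loxl1 overlapped between the groups, at -0.18 and -0.15 (edgeR adjusted p = 0.663 and 0.712). Among 14 fibril-associated genes the median was -0.32, with 7 below and 4 above (the same shares of all genes apply). Fn1 (fibronectin) and Bgn (biglycan) were above both controls in both mutants, at log2 fold changes of 0.17 and 0.16 (edgeR adjusted p = 0.605 and 0.614), and Sparc, a collagen-binding matrix protein, was below, at -0.23 (edgeR adjusted p = 0.533). The 11 collagen receptor genes had a median of 0.041, with 3 below and 4 above, near the 22.8% and 25.4% of all tested genes. Itgb1, the β1 integrin chain, was at 0.34 and the collagen uptake receptor Mrc2 at -0.24 (edgeR adjusted p = 0.271 and 0.523), and Antxr1, which binds type VI collagen, was at 0.26 (edgeR adjusted p = 0.365). No gene of these 3 lists passed in edgeR, where 2 trimming, 7 fibril-associated and 4 receptor genes had an unadjusted p under 0.05, beside 15.6% of all genes. DESeq2 called Dpt, Itga1 and Itga10 lower (2.01% of all genes) and Loxl4, Tll1 and Thbs1 higher (3.3% of all genes). These too are named after their values were seen.

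**Figure D4:**
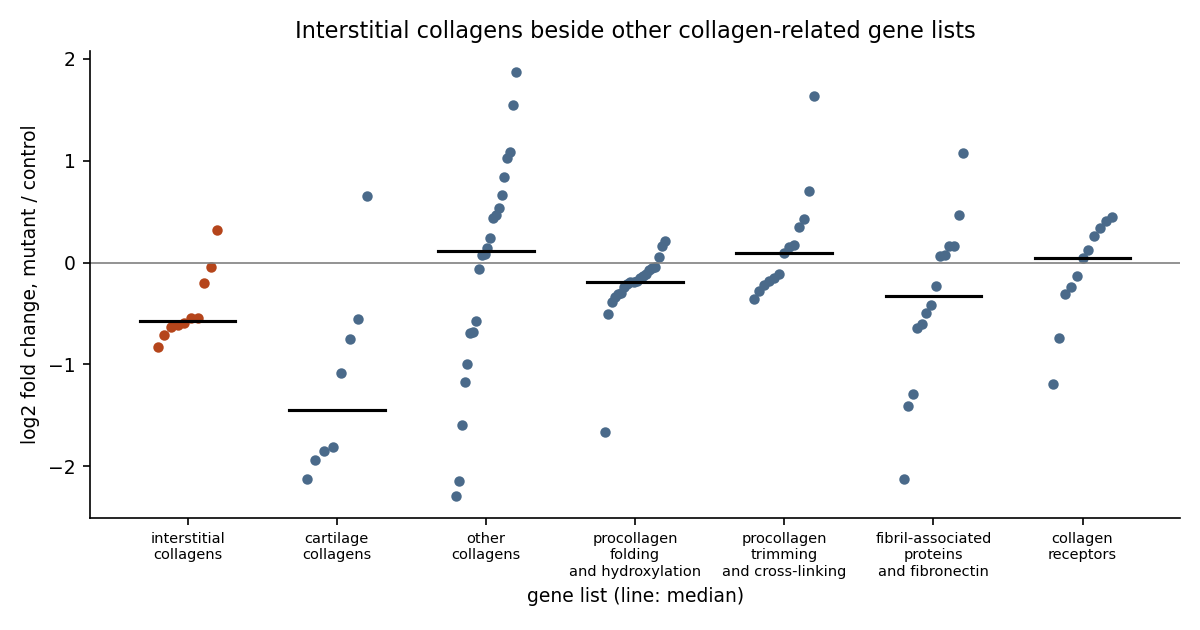
Log2 fold change (mutant over control) of each tested gene in the interstitial collagens (red) and in 6 other lists (blue), with the median of each list as a line. The median is -0.57 for the interstitial and -1.45 for the cartilage collagens, and lies between -0.32 and 0.12 for the other 5 lists.

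Markers of the cell types that the dissected rib could hold were set beside these values. Some markers, among them Col2a1, Col11a2, Lum, Dpt and Fmod, were also in the lists above. The counts over markers and over those lists are therefore not independent. Chondrocyte markers were present in all cultures, with Col2a1, Comp and Sox9 as the highest, and their summed RPKM was 877 and 884 in the controls and 414 and 551 in the mutants. All 12 of them were below both controls in both mutants, beside 22.8% of all tested genes. By DESeq2 10 were called lower, beside 2.01% of all genes. By edgeR 0 were called (11 at an unadjusted p under 0.05, beside 15.6% of all genes). Osteoblasts also make type I collagen. The summed RPKM of 8 osteoblast markers was 187 and 83.3 in the controls and 31.9 and 53.5 in the mutants, led by Alpl, Ibsp and Runx2, while Bglap, Bglap2, Dmp1 and Phex were under 1 in every sample. All 5 of the tested osteoblast markers were below both controls in both mutants, beside 22.8% of all tested genes. The 12 fibroblast and perichondrium markers summed to 1187 and 1247 in the controls and 1410 and 1966 in the mutants. Of the 12, 3 were below and 3 above both controls in both mutants, near the 22.8% and 25.4% of all tested genes. Thy1, a surface protein of fibroblasts, was the highest of these, at 220 and 341 in the controls and 609 and 832 in the mutants (log2 fold change 1.32, standard error 0.234, edgeR adjusted p = 0.0884). S100a4 was at -0.049, with groups that overlapped, and Ly6a at 1.05 (edgeR adjusted p = 0.126). The sum was carried by these 3 genes. The other 9 fibroblast markers summed to 570 and 435 in the controls and 356 and 363 in the mutants, and 9 of the 12 had a negative log2 fold change (median -0.24). Lum, Dpt and Twist1 lay below both controls in both mutants, at log2 fold changes of -1.29, -2.13 and -0.70 (edgeR adjusted p = 0.166, 0.0998 and 0.222), so that the list held values in both directions.

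The 6 tendon markers summed to 409 and 238 in the controls and 234 and 251 in the mutants, led by Fmod, Egr1 and Tnmd. Fmod made up most of the sum, at 309 and 168 in the controls and 151 and 166 in the mutants. Of the 5 tested tendon markers 1 (Fmod) was below and 2 were above both controls in both mutants, beside 22.8% and 25.4% of all tested genes. The 10 striated muscle markers, led by Acta1, Des and Actc1, summed to 99.9 and 35.8 in the controls and 182 and 202 in the mutants. Of these, 8 of 10 were above both controls in both mutants, beside 25.4% of all tested genes. The 6 macrophage markers summed to 18.9 and 17.6 against 9.88 and 14.7, led by Lyz2, Cd68 and Cd14, with Ptprc and Adgre1 under 1 in every sample. Of the 5 tested macrophage markers 4 were below and 1 (Cd14) was above both controls in both mutants, beside 22.8% and 25.4% of all tested genes. All 5 endothelial markers were under 1 in every sample. The part of these cell types, and of embryo sex, in the collagen values was not tested.

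Genes with a profile over the 4 samples most like type I collagen were ranked by the Euclidean distance of centred log2 CPM to the mean of Col1a1 and Col1a2, among 6100 genes with a mean RPKM of at least 10. Among the members Col6a3 was closest after the type I genes, at a distance of 0.170 (rank 4), followed by Col3a1 (0.335, rank 78), Col6a2 (0.338, rank 82) and Col6a1 (0.344, rank 85). Col5a3, Col5a1 and Col5a2 were at ranks 156, 204 and 1187, and Col12a1 at rank 4616. The nearest genes outside the list were Cd248 (0.117), Svil (0.177), Fbn1 (0.180), Tnmd (0.193) and Chst2 (0.197). Cd248, a receptor on stromal fibroblasts that binds matrix, had an RPKM of 229 and 160 in the controls and 153 and 118 in the mutants. Fbn1, which encodes the microfibril protein fibrillin-1, had 190 and 151 in the controls and 138 and 93.1 in the mutants. With 4 samples such likeness is a description of these cultures.

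Nearly the whole length of each member was covered by reads, between 97.6% and 100% in every sample. Col3a1, Col5a2 and Col12a1 were covered less in both mutants than in both controls. Col3a1 had 99.4% and 99.55% of its length covered in the controls and 98.0% and 97.7% in the mutants, from 77308 or more reads. Col5a2 had 99.0% and 99.1% in the controls and 97.8% and 97.6% in the mutants. Col12a1 had 99.78% and 99.77% in the controls and 99.67% and 99.43% in the mutants. Among 6561 genes with at least 500 counts in every sample, 10.8% were covered less in both mutants than in both controls, and 3.81% by over 1 percentage point.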

How the data were processed

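Poly(A) RNA of 2 control and 2 mutant chondrocyte cultures was sequenced by BGI, and the labels name both an Ion Proton platform and Illumina protocols. The authors deposited, for each sample, the raw read count per gene, the RPKM (scaled by gene length and total counts) and its coverage in percent of the length. The submitters' processing notes name SAMtools and mm9. The aligner, counting tool and annotation are not given in the sources used here. Genes without a read were given a count of 0. The files hold no coordinates, so positions come from GENCODE M21 and RefSeq (both GRCm38), and no mm9 coordinate was used. In the lists, 7 genes with older symbols were matched by Entrez identifier.

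Counts were tested with the edgeR 4.0.16 quasi-likelihood test (R 4.3.3, TMM, robust) over 14123 genes that reached 10 counts in 2 or more of the samples, and p values were adjusted by Benjamini-Hochberg. Each standard error is the log2 fold change over the root of its F value. TMM factors ranged from 0.966 to 1.03. Alternatives were DESeq2 1.42.0, other filters and scalings, limma 3.58.1 on log2(RPKM + 1) and log2(RPKM + 0.1), a block for the replicate number, and 4 fits with 1 sample left out. The script was also run on simulated counts that held no outlying sample, and the outcome of that run is not given here. Replicate pairs differed beyond sampling noise (chi-square over degrees of freedom 40.8 and 20.1), so each sample counted once.

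Named genes were all members, Senp6, list genes past an adjusted p of 0.05 in edgeR, the 3 genes of each list with the highest mean RPKM, and the 5 nearest to type I collagen. Chosen after their values were seen were the DESeq2 calls in the lists, markers under 1 RPKM, Lum, Dpt and Twist1, and Xist with the Y-linked genes. The members and lists were chosen with earlier results of these data known.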

Additional observations from a re-analysis of the deposited data

How the results depend on the processing

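The 6 genes of types I, III and VI kept a negative log2 fold change and Col12a1 a positive one in all 12 alternatives. With 1 sample left out, Col5a1 ranged from -0.47 to 0.078, Col5a2 from -0.23 to 0.14 and Col5a3 from -1.03 to 0.13, each highest without control replicate 1. Col5a2 was also 0.0053 with library totals, 0.011 by limma with either pseudocount (1 or 0.1), and 0.053 without mutant replicate 2. The cause of these sign changes was not tested.

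In edgeR 0 members were called lower with all samples, against 1 with DESeq2 and 0 to 6 with 1 sample left out. None was called higher in any fit. The median over the 10 members ranged from -0.90 to -0.24 with 1 sample left out and from -0.59 to -0.50 under the other alternatives, and their share of the counts differed by -3.01 to -0.707 percentage points with 1 sample left out and by -0.89 points as a share of the RPKM total. With DESeq2, members of the other lists called lower numbered 7 (cartilage collagens), 2 (other collagens), 1 (fibril-associated) and 2 (receptors), beside 2.01% of all genes. Those called higher numbered 1 (other collagens), 2 (trimming and cross-linking) and 1 (fibril-associated), beside 3.3% of all genes. With the replicate number as a block 0 interstitial members were called. In the lists 2 cartilage collagens, 1 other collagen and 1 fibril-associated gene were lower under it, beside 0.234% of all genes. Higher were 1 trimming and 1 fibril-associated gene, beside 0.595% of all genes. Without the filter on counts 4 cartilage collagens and 1 receptor gene were lower, and 1 gene each of the other collagens, trimming and fibril-associated lists higher. The share of all genes called was not computed for that fit, so these counts have no background. For the fits with 1 sample left out, the shares of all genes differed widely and are given above with the members. With 1 sample left out, genes called lower ranged from 4 to 5 for cartilage collagens, 0 to 8 for other collagens, 0 to 7 for folding, 0 to 1 for trimming, 0 to 5 for fibril-associated genes and 0 to 3 for receptors. Genes called higher ranged from 0 to 7 for other collagens, 1 to 3 for trimming, 1 to 2 for fibril-associated genes and 0 to 1 for receptors.

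Replicate differences had a correlation of -0.060 between genotypes across 14123 genes, which are not independent. This value cannot tell whether samples with the same replicate number shared a litter or batch. In every member but Col12a1, replicate 1 was above replicate 2 in both genotypes, and the share of all tested genes with that pattern was not computed. Under a block on replicate number the median log2 fold change of the members was -0.55, with 33 genes lower and 84 higher of all tested. Fits with 1 sample left out of a group assume that the lone sample varies like the other group. Depth did not limit the members, each of which had at least 3103 reads in every sample.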
